A study of Rattus norvegicus with 12 samples.

Results

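This account concerns the lungs of rats given monocrotaline and vehicle (MCT-vehicle) set against the lungs of control rats (Control), in whole-lung RNA sequenced as 4 libraries per group. Those 8 libraries are taken from a series of 12, chosen by their titles, and the remaining 4, from rats given monocrotaline and ferrostatin-1, enter only the estimate of spread. All genes were examined, 15257 tested of 32883 features in the table, with most room given to functions other than vessels, p53, matrix and macrophages. All rats carry the genotype label WT, and every library is labelled with a time of 25 days whose starting day is not stated. The MCT-vehicle rats received vehicle over 10 days, no dosing is stated for Control rats, and strain, sex and age are not stated. The alkaloid and the vehicle cannot be told apart, nor can handling, since Control libraries carry a separate run of numbers in their descriptions. The labels do not say that each library came from a different rat, and p-values thus cover only spread among these libraries, which may be technical.

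Monocrotaline is a pyrrolizidine alkaloid of Crotalaria plants. The liver converts it to a reactive pyrrole that reaches the lung first and damages the endothelium, and over the following weeks rats develop remodelled pulmonary arteries, raised pulmonary pressure and inflammation around vessels. The lung also holds rare sensory epithelial cells, resident and recruited leukocytes, and signalling systems for purines and peptides, whose transcripts are followed here.

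Library totals ran from 16640022 to 18229992 counts in Control and from 13654695 to 24016262 counts in MCT-vehicle, so that 3 counts, the floor used here, correspond to 0.125 to 0.220 CPM, counts scaled to the size of the library. Counting error only is covered by that floor. Lung markers were high in every library: the alveolar type 2 list summed to 35230 to 38470 CPM in Control and 22980 to 36500 CPM in MCT-vehicle. Heart-muscle transcripts reached a sum of 318 CPM in Control 4 and 473 CPM in MCT-vehicle 2, against 18.2 to 87.0 CPM in the other 6 libraries. The thymus and lymph node list summed to 163 CPM in MCT-vehicle 2 and 12.3 to 24.8 CPM elsewhere. Counts of changed genes are therefore also given without Control 4 and MCT-vehicle 2.

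In MCT-vehicle, 1579 genes rose and 1264 fell (edgeR quasi-likelihood test, Benjamini-Hochberg adjusted p below 0.05), which is 10.3% and 8.28% of the genes tested and 18.6% in all. Without Control 4 and MCT-vehicle 2 these were 969 and 706 genes. Groups were fully separated in 21.5% of genes. Gene lists for 55 functions and cell types placed the calls, and in 16 of them at least 4 members and at least 1.5 times the background share were called. Lysosome genes rose in 18 of 29 cases and fell in 0, and red cell genes fell in 8 of 9 cases and rose in 0.

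**Figure D1:**
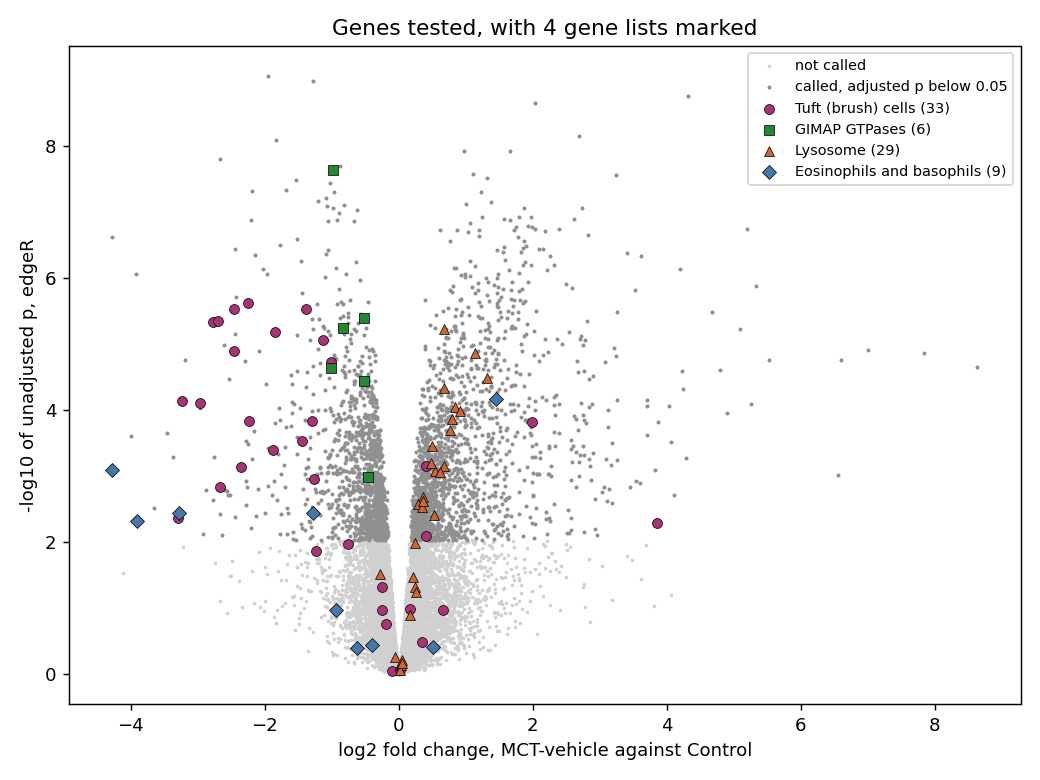
Each point is 1 of the 15257 genes tested, with the log2 fold change of MCT-vehicle against Control on the x axis and −log10 of the unadjusted edgeR p on the y axis. Tuft-cell and GIMAP genes lie mostly on the left (19 of 33 and 6 of 6 called down), lysosome genes on the right (18 of 29 called up).

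**Figure D2:**
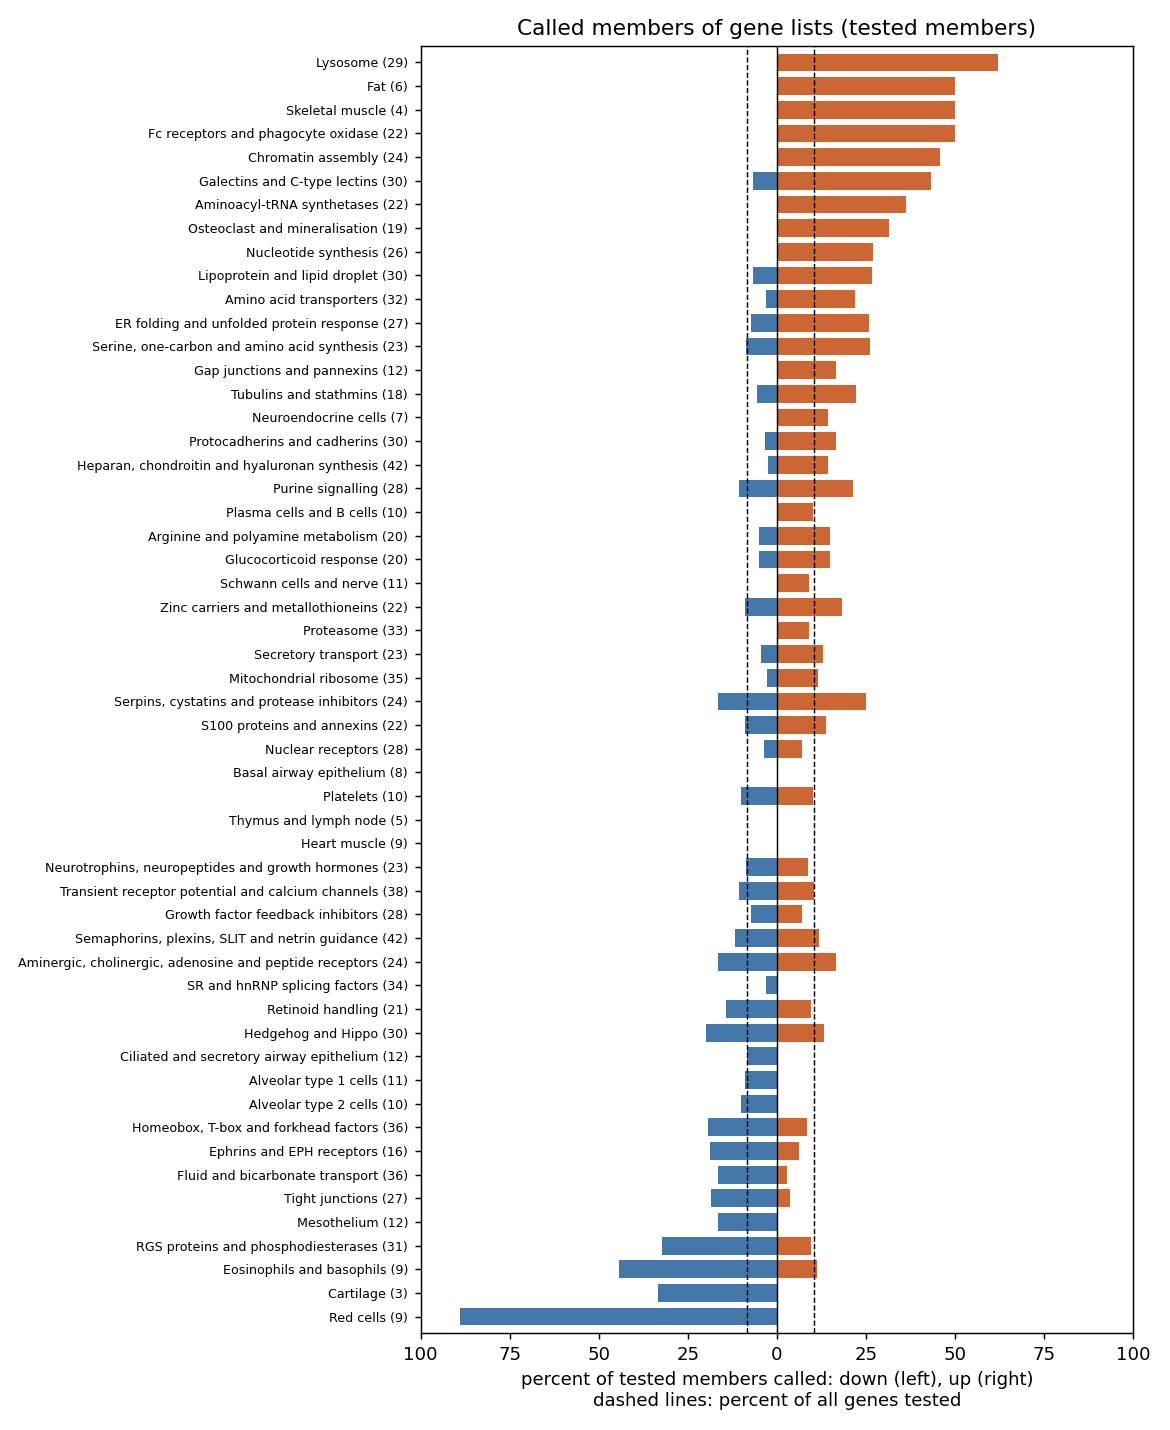
Bars give the percent of tested members called down (left) and up (right) in each gene list shown, with the number of tested members in brackets. Dashed lines mark the share over all genes tested, 8.28% down and 10.3% up, and the bar of the lysosome list reaches furthest to the right.

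Most transcripts listed for tuft cells fell. Tuft cells, also called brush cells, are rare chemosensory cells of the airway and gut epithelium that carry a tuft of microvilli, sense their surroundings through the taste transduction cascade, and release IL-25, leukotrienes and acetylcholine. Their list was put together after the fall of its first members had been seen, so its counts are a description and carry no test. Of 38 symbols 36 were matched and 33 tested, and 19 of these fell, all at least 2-fold, while 4 rose (background 8.28% down). The median log2 fold change of the tested members was −1.27, against 0.02 over all genes. Fewer tuft cells and less RNA per cell cannot be told apart in whole lung, here and in every cell type below.

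Pou2f3 (ENSRNOG00000009118), the transcription factor without which tuft cells do not form, measured 7.48, 16.4, 12.1 and 15.4 CPM in Control and 2.22, 1.41, 2.09 and 1.79 CPM in MCT-vehicle. No MCT-vehicle library reached the lowest Control library. Its log2 fold change was -2.78 ± 0.36 (SE; edgeR adjusted p = 3.72e-04), a fall of 6.86-fold. Of the 7 transcription factors listed 5 fell, among them the ETS factor gene Spib, with 34.9, 51.7, 42.5 and 42.7 CPM in Control and 12.2, 18.5, 15.4 and 19.96 CPM in MCT-vehicle (log2 fold change -1.38 ± 0.17). Sox9, which also marks cartilage and airway progenitors, changed by -1.87 ± 0.40. The homeobox gene Hmx2 changed by -3.24 ± 0.56, with MCT-vehicle values near the floor, and by −3.87 without MCT-vehicle 2. The haematopoietic and tuft factor gene Gfi1b was not called, at 2.03, 2.71, 2.83 and 1.60 CPM in Control and 0.555, 0.726, 1.49 and 1.21 CPM in MCT-vehicle (log2 fold change -1.23 ± 0.43, edgeR adjusted p = 0.0646). Ascl2, a factor gene of stem cells as well, was not called either, at 0.482 to 0.664 CPM in Control and 0.522 to 0.840 CPM in MCT-vehicle, which overlap.

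Of the 7 tested genes listed for the taste transduction cascade 3 fell, 1 rose and 3 were not called. Their median log2 fold change was −0.101. The cascade turns a bound ligand into a sodium current. Gnat3 (ENSRNOG00000005268), which encodes gustducin, its G protein alpha subunit, measured 5.83, 16.003, 8.61 and 8.82 CPM in Control and 1.11, 0.817, 0.597 and 2.42 CPM in MCT-vehicle. Gng13, the matching gamma subunit gene, measured 4.45, 6.42, 4.70 and 4.02 CPM in Control and 1.45, 1.18, 1.27 and 1.52 CPM in MCT-vehicle. Trpm5 (ENSRNOG00000020484), the cation channel at the end of the cascade, measured 32.3, 48.2, 35.7 and 40.01 CPM in Control and 7.01, 4.22, 9.10 and 8.19 CPM in MCT-vehicle. In all 3 genes each MCT-vehicle library lay below each Control library, which for Gnat3 was a condition of its choice. Gnb3 and Tas1r1, of the same cascade, were not called (edgeR adjusted p = 0.941 and 0.252). The log2 fold changes were -2.97 ± 0.51 for Gnat3, -1.85 ± 0.25 for Gng13 and -2.47 ± 0.34 for Trpm5, with edgeR adjusted p of 0.00215, 4.36e-04 and 6.77e-04. In the middle of the cascade, the calcium release channel gene Itpr3, which many cell types share, stood at 47.1 to 62.7 CPM in Control and 58.5 to 61.5 CPM in MCT-vehicle and was not called (edgeR adjusted p = 0.246). Plcb2, a phospholipase gene of leukocytes as well, changed by 0.41 ± 0.13 and was called up (edgeR adjusted p = 0.0449), a call lost in 12 of 15 alternatives (adjusted p 0.0198 to 0.108 over them).

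Of the 5 apical and cytoskeletal genes listed 3 fell, and these 3 belong to the actin bundles of the tuft. Avil (ENSRNOG00000050419), advillin, measured 33.7, 65.9, 43.9 and 46.1 CPM in Control and 8.59, 5.85, 9.25 and 10.9 CPM in MCT-vehicle (log2 fold change -2.46 ± 0.30). Villin, Vil1, measured 9.23, 15.5, 12.2 and 13.7 CPM in Control and 1.97, 1.27, 3.65 and 3.99 CPM in MCT-vehicle (log2 fold change -2.24 ± 0.41), and espin, Espn, changed by -2.35 ± 0.53. Again no library of one group entered the range of the other. Dclk1, a kinase gene often used as a tuft marker in the gut, measured 28.2 to 44.2 CPM in Control and 27.9 to 36.5 CPM in MCT-vehicle, without a call (edgeR adjusted p = 0.348).

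Of the 7 tested genes listed for signal output 3 fell, 2 rose and 2 were not called. Those that fell were Il25, Il17rb and Ltc4s, a gene of cysteinyl leukotriene synthesis. Il25, the cytokine by which tuft cells alert innate lymphoid cells, measured 1.04, 2.77, 0.964 and 1.66 CPM in Control and 0.299, 0.181, 0 and 0.473 CPM in MCT-vehicle (log2 fold change -2.66 ± 0.66, edgeR adjusted p = 0.0141). Without Control 2 its adjusted p was 0.0502 and without Control 4 and MCT-vehicle 2 it was 0.0724, the highest of the alternatives, which began at 0.000914. Its receptor gene Il17rb, also made by tuft cells, measured 4.45, 7.42, 6.69 and 5.09 CPM in Control and 1.88, 2.40, 3.28 and 2.10 CPM in MCT-vehicle (log2 fold change -1.30 ± 0.24). Leukotriene C4 synthase, Ltc4s, changed by -1.27 ± 0.30 (edgeR adjusted p = 0.0117), with a call that was lost without Control 4 and MCT-vehicle 2 (adjusted p = 0.0556, the highest of 15 alternatives from 0.000615). Other genes of eicosanoid synthesis on the list went otherwise. Which cells the transcripts of Ltc4s and of these genes came from was not tested. Alox5 and Alox5ap, which feed leukotriene synthesis, were not called (log2 fold changes -0.25 ± 0.14 and 0.02 ± 0.11), while the cyclooxygenase gene Ptgs1 rose by 0.41 ± 0.09 and the prostaglandin D synthase gene Hpgds by 2.00 ± 0.38.

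Of the 7 tested surface and signalling genes 5 fell, 1 rose and 1 was not called. Sh2d7, an adaptor gene, measured 15.8, 26.9, 21.4 and 22.9 CPM in Control and 2.44, 2.13, 4.10 and 4.83 CPM in MCT-vehicle (log2 fold change -2.70 ± 0.35). Hepacam2, an immunoglobulin family gene, measured 12.4, 19.3, 15.96 and 18.4 CPM in Control and 3.55, 2.40, 4.18 and 3.78 CPM in MCT-vehicle (log2 fold change -2.26 ± 0.28, edgeR adjusted p = 2.46e-04). Rgs13, Plcg2 and Lrmp, which B cells and mast cells express too, changed by -1.44 ± 0.29, -1.01 ± 0.15 and -1.13 ± 0.16. The kinase gene Bmx, also of endothelium, overlapped at 4.91 to 7.42 CPM in Control and 2.36 to 5.04 CPM in MCT-vehicle and was not called (log2 fold change -0.76 ± 0.26, edgeR adjusted p = 0.055). The fatty acid receptor gene Ffar3 was called up (log2 fold change 3.86 ± 1.14, edgeR adjusted p = 0.0333) from Control values at or under the floor, and lost the call in 9 of the 13 alternatives that tested it (adjusted p 0.00302 to 0.125). Without Control 4 and MCT-vehicle 2, 17 tuft genes fell and 2 rose, and leaving out any 1 library left 17 to 19 down. The 4 rising members became 2 without any 1 of Control 1 to 4, MCT-vehicle 1 or MCT-vehicle 4.

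**Figure D3:**
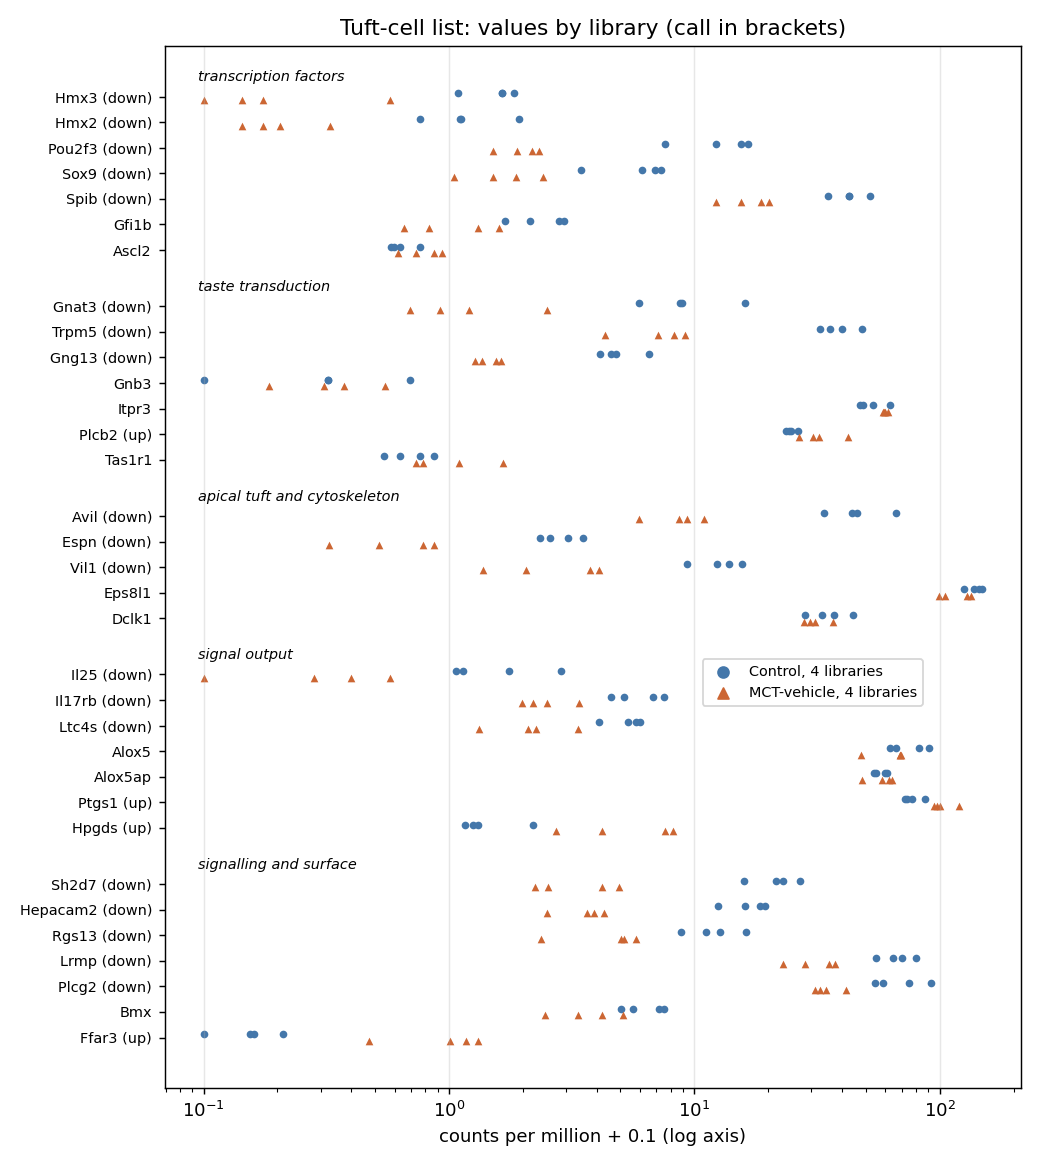
Values of the 33 tested tuft-cell genes in each library, on a log axis of CPM + 0.1, with Control as circles, MCT-vehicle as triangles and the call beside each name. The groups lie apart for Pou2f3, Gnat3, Trpm5, Avil and Il25, and overlap for Ascl2, Bmx, Dclk1, Alox5ap and Itpr3.

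Other epithelial lists held fewer called genes. Their counts are not directly comparable with those of the tuft list, which was put together after falls had been seen. Of the ciliated and secretory airway list 0 of 12 rose and 1 fell, of basal airway cells 0 of 8 rose and 0 fell, of alveolar type 2 cells 0 of 10 rose and 1 fell and of alveolar type 1 cells 0 of 11 rose and 1 fell. Their medians ran from −0.29 to 0.28, and leaving out MCT-vehicle 1, MCT-vehicle 2, MCT-vehicle 4 or any Control library changed a count of 1 or 0 down to between 0 and 3. MCT-vehicle lay wholly below Control in 4 alveolar type 2, 2 alveolar type 1, 2 basal and 1 ciliated or secretory gene. The same held for 1528 of all 15257 genes. The ciliated and secretory list summed to 8859 to 10270 CPM in Control and 6480 to 10330 CPM in MCT-vehicle, which overlap. The plasma and B cell list, whose cells share Spib, Plcg2 and Rgs13, had 1 of 10 up and 0 down and summed to 291 to 328 CPM in Control and 300 to 408 CPM in MCT-vehicle. The cytokeratin gene Krt18, of simple epithelia and mesothelium, changed by -0.66 ± 0.11 (edgeR adjusted p = 0.00129). The part of these cell types in the tuft result was not tested.

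Type 2 immunity, the arm of defence that IL-25 starts together with IL-33, had called genes in both directions. In a list put together after values were seen, 5 of 25 tested members rose and 4 fell, where 10.3% and 8.28% of all genes did. The alarmin gene Il33 measured 349, 405, 392 and 423 CPM in Control and 211, 203, 192 and 221 CPM in MCT-vehicle, while Il1rl1, the gene of its receptor on mast cells and innate lymphoid cells, measured 9.07, 8.20, 7.41 and 5.80 CPM in Control and 23.3, 29.3, 39.5 and 29.2 CPM in MCT-vehicle. The log2 fold changes were -0.92 ± 0.09 and 1.99 ± 0.19. Among effectors that IL-4 and IL-13 are known to induce, Slc26a4 (ENSRNOG00000058692), the pendrin anion exchanger of airway epithelium, measured 8.85, 8.31, 8.01 and 2.84 CPM in Control and 58.96, 91.9, 115 and 60.1 CPM in MCT-vehicle (log2 fold change 3.54 ± 0.39, edgeR adjusted p = 1.86e-04). Arginase 1, Arg1, measured 15.996, 20.7, 15.2 and 15.3 CPM in Control and 39.6, 51.6, 57.8 and 43.4 CPM in MCT-vehicle (log2 fold change 1.52 ± 0.23), and the acidic chitinase gene Chia measured 258, 312, 245 and 181 CPM in Control and 437, 428, 548 and 446 CPM in MCT-vehicle (log2 fold change 0.90 ± 0.18). In Slc26a4, Arg1 and Chia all MCT-vehicle values exceeded all Control values. Other induced effectors did otherwise. The lipoxygenase gene Alox15, which is also counted with eosinophils, measured 31.7, 24.8, 30.6 and 24.2 CPM in Control and 19.3, 7.85, 12.01 and 6.62 CPM in MCT-vehicle, all lower in MCT-vehicle, and was called down (log2 fold change -1.28 ± 0.35, edgeR adjusted p = 0.0259). That call was lost in 6 of 15 alternatives, with adjusted p of 0.0554 without Control 1, 0.0622 without Control 3, 0.0690 without MCT-vehicle 2, 0.0514 without MCT-vehicle 3, 0.0621 without MCT-vehicle 4 and 0.0945 without Control 4 and MCT-vehicle 2, in a range from 0.00128. Not called were the resistin-like gene Retnla (1.55 ± 0.50, edgeR adjusted p = 0.0557), the mucus-associated gene Fcgbp (-0.60 ± 0.20, 0.0533) and Clca1 (1.19 ± 1.16, 0.524), whose log2 fold change was −2.06 without MCT-vehicle 2. The cytokines themselves were at the edge of detection: Il5 had 0 CPM in all 8 libraries, and Il13 did not exceed 0.166 CPM in any.

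The granule genes of eosinophils named here were called down, with calls that depend on single libraries. Of the eosinophil and basophil list 4 of 9 fell and 1 rose, against 8.28% and 10.3% of all genes. Eosinophil peroxidase, Epx, measured 3.41, 1.33, 8.13 and 2.55 CPM in Control and 0, 0.136, 0.597 and 0.158 CPM in MCT-vehicle, with no overlap, a condition of its choice, and with wide Control values. Its log2 fold change was -4.27 ± 0.97 (edgeR adjusted p = 0.00951), −3.60 without Control 3, −5.28 without MCT-vehicle 3, and not called by limma voom (adjusted p = 0.0603, the highest of 15 alternatives from 3.40e-05). The major basic protein gene Prg2 measured 8.85, 3.54, 15.7 and 3.73 CPM in Control and 0, 0.817, 2.39 and 0.315 CPM in MCT-vehicle (log2 fold change -3.29 ± 0.91, edgeR adjusted p = 0.026) and was not called without Control 3 (adjusted p = 0.0803), without MCT-vehicle 2 (0.0590), without MCT-vehicle 4 (0.0677), without Control 4 and MCT-vehicle 2 (0.0670), without a filter on low counts (0.0511), by limma voom (0.0533) or with only the 8 libraries (0.0533), in a range from 0.0103 to 0.0803, and its fold change was −4.39 without MCT-vehicle 3. The list had 1 falling member without any 1 of Control 3, MCT-vehicle 2 or MCT-vehicle 4, without Control 4 and MCT-vehicle 2 and by limma voom, and 2 with only the 8 libraries. The member that rose was Csf2rb, the shared receptor chain for IL-3, IL-5 and GM-CSF that macrophages carry as well, with 33.6, 32.7, 31.02 and 23.4 CPM in Control and 53.8, 80.97, 112 and 86.2 CPM in MCT-vehicle (log2 fold change 1.46 ± 0.24).

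Every tested gene of the GIMAP family fell. These GTPases of immunity-associated proteins sit in 1 gene cluster and are expressed in lymphocytes and, some of them, in endothelium. The group was picked after its values were seen. Gimap6 (ENSRNOG00000033338) measured 114, 121, 120.4 and 126 CPM in Control and 69.3, 57.1, 53.02 and 63.2 CPM in MCT-vehicle (log2 fold change -0.98 ± 0.08, edgeR adjusted p = 3.24e-05). Gimap9 measured 74.8, 86.3, 94.4 and 92.5 CPM in Control and 54.6, 32.1, 47.1 and 38.8 CPM in MCT-vehicle (log2 fold change -1.01 ± 0.15). The remaining log2 fold changes were -0.83 ± 0.11 for Gimap7, -0.51 ± 0.07 for Gimap8, -0.51 ± 0.08 for Gimap4 and -0.45 ± 0.11 for Gimap5. The groups did not overlap in any of the 6 genes, and all 6 were called down in every alternative tried, where 21.5% of all genes did not overlap and 8.28% were called down.

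Lysosomal hydrolases and their partners rose together. Lysosomes are acid compartments that break down proteins, lipids and sugars, and macrophages and osteoclasts hold many of them. Of 29 tested members 18 rose (62.1%) and 0 fell, against 10.3% and 8.28% of all genes. Log2 fold changes of the risers reached up to 1.32 (Ctsd), with a list median of 0.37. A DNA word read by the lysosomal regulator TFEB is the E-box CACGTG, so promoter windows of the risers were searched on both strands for these letters. Of 13 risers with a RefSeq window (assembly GRCr8, 250 bases before to 50 after the gene start) 3 held it, or 23.1%, against 2 of 9 members that were not called, or 22.2%, and 6.42% of all 33469 windows. The holding windows of the 3 risers are shown 5′ to 3′ on the gene's strand to let the position of the letters be seen, with every match in capitals. They are Ctsd, chr1:206968772-206969071 on the minus strand, Glb1, chr8:122963468-122963767 on the plus strand, and Cd63, chr7:1921894-1922193 on the plus strand.
Ctsd: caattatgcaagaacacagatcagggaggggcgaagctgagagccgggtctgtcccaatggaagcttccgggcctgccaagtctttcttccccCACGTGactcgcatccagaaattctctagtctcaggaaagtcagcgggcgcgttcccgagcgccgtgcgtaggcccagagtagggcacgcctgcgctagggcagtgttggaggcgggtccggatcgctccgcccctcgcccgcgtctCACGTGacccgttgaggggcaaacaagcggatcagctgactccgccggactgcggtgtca
Glb1: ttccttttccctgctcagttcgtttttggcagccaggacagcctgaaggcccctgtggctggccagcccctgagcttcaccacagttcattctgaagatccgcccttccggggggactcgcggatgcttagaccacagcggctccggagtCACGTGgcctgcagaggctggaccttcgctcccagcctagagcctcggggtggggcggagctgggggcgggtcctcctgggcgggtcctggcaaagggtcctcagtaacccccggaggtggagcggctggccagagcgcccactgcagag
Cd63: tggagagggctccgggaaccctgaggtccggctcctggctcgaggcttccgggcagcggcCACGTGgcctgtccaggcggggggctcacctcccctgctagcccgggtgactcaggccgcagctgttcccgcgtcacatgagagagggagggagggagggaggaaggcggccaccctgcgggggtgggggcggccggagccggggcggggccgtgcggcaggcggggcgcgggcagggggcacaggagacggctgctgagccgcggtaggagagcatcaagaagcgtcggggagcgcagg
A match is a description of letters and no evidence of binding. The build behind the counts is not stated.

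Cathepsin D, Ctsd (ENSRNOG00000020206), the main aspartyl protease of the lysosome, measured 1298, 1559, 1441 and 1216 CPM in Control and 3026, 3007, 5097 and 2609 CPM in MCT-vehicle (log2 fold change 1.32 ± 0.21). Cathepsin S, Ctss, which trims the invariant chain of MHC class II, measured 114, 105, 109 and 98.2 CPM in Control and 190.1, 196, 349 and 209 CPM in MCT-vehicle (log2 fold change 1.15 ± 0.17). Beta-galactosidase, Glb1, measured 54.9, 65.9, 63.8 and 54.5 CPM in Control and 92.1, 85.9, 113 and 91.5 CPM in MCT-vehicle (log2 fold change 0.68 ± 0.09, edgeR adjusted p = 4.18e-04). In these genes the lowest MCT-vehicle library stood above the highest Control library, and MCT-vehicle 3 was the highest of all. Progranulin, Grn, rose by 0.67 ± 0.11, prosaposin, Psap, by 0.61 ± 0.14 and the tetraspanin Cd63 by 0.49 ± 0.11. Structural and regulatory genes of the organelle were not called: Lamp1 had a log2 fold change of 0.05 ± 0.10, Lamp2 of 0.17 ± 0.10, the calcium channel gene Mcoln1 of 0.02 ± 0.09 and Tfeb itself of -0.06 ± 0.10. These 4 and Cd63 were picked with values in view. When MCT-vehicle 3 was left out, 1 member of the list fell, and without Control 4 and MCT-vehicle 2 the risers were 15.

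Bone-resorption genes were among the risers. Of the osteoclast and mineralisation list 6 of 19 rose and 0 fell, against 10.3% and 8.28% of all genes. Cathepsin K, Ctsk, the collagen-degrading protease of osteoclasts, measured 14.7, 11.96, 10.3 and 6.63 CPM in Control and 28.5, 53.6, 108 and 31.99 CPM in MCT-vehicle (log2 fold change 2.34 ± 0.46). RANK, Tnfrsf11a (ENSRNOG00000015615), the receptor that starts osteoclast formation, measured 12.9, 11.7, 14.1 and 10.7 CPM in Control and 30.4, 36.8, 27.1 and 29.9 CPM in MCT-vehicle (log2 fold change 1.33 ± 0.16, edgeR adjusted p = 1.62e-04). The groups were apart in both genes. Tartrate-resistant acid phosphatase, Acp5, rose by 0.99 ± 0.19, and Fam20c, the kinase of secreted phosphoproteins, by 0.63 ± 0.11.

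Many surface receptors of myeloid cells rose. Over all genes tested, 10.3% rose and 8.28% fell. Of galectins and C-type lectins 13 of 30 rose and 2 fell, and of Fc receptors and the phagocyte oxidase 11 of 22 rose and 0 fell. Without Control 4 and MCT-vehicle 2 the risers were 7 and 6. The Fc receptor risers were 7 without Control 2 and 7 without Control 4, and the falling lectins were 1 without any library other than Control 4 and MCT-vehicle 1. Lgals3bp (ENSRNOG00000003217), a secreted glycoprotein that binds galectins, measured 137, 150.2, 142 and 148 CPM in Control and 283, 306, 281 and 294 CPM in MCT-vehicle (log2 fold change 1.01 ± 0.09, edgeR adjusted p = 4.60e-05). Clec10a, a galactose-binding lectin of dendritic cells and macrophages, rose by 1.46 ± 0.22, and Clec4a3, an inhibitory lectin, by 0.89 ± 0.13. The inhibitory IgG receptor gene Fcgr2b rose by 1.16 ± 0.20 and the high-affinity IgG receptor gene Fcgr1a by 0.60 ± 0.14. Fcer1g, the signalling chain of the latter, picked after its values were seen, rose by 0.61 ± 0.14. Fcer1a, the IgE-binding chain of mast cells and basophils, rose, its mean going from 2.85 ± 1.03 to 18.4 ± 4.07 CPM (SD, n = 4 each). Noxo1, an organiser of NADPH oxidase 1, rose by 1.01 ± 0.19.

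Conventional type 1 dendritic cells, which take up dead cells and present their antigens to CD8 T cells, bear Xcr1 and Clec9a. Xcr1 (ENSRNOG00000006620), the receptor for the chemokine XCL1, measured 2.69, 3.16, 2.59 and 1.95 CPM in Control and 9.74, 11.5, 8.13 and 13.1 CPM in MCT-vehicle (log2 fold change 2.03 ± 0.20, edgeR adjusted p = 5.54e-05). Clec9a, a receptor for the actin of dead cells, measured 6.82, 5.65, 5.12 and 3.61 CPM in Control and 16.4, 22.7, 19.8 and 18.8 CPM in MCT-vehicle (log2 fold change 1.87 ± 0.17, edgeR adjusted p = 4.60e-05). The 4 values of each group lay apart in both, which was a condition of their choice. Ccl9 (ENSRNOG00000028548), a rodent chemokine, measured 19.9, 24.8, 18.4 and 14.8 CPM in Control and 102, 121, 103 and 84.1 CPM in MCT-vehicle (log2 fold change 2.40 ± 0.22), and Maf, a transcription factor active in macrophages and T cells, rose by 1.23 ± 0.11. Beside these genes, the thymus and lymph node list stood at 163 CPM in MCT-vehicle 2 and at 12.3 to 17.5 CPM in the other MCT-vehicle libraries, and its part in these results was not tested.

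Protease inhibitors split. Of the list 6 of 24 rose and 4 fell, against 10.3% and 8.28% of all genes. Serpina1 (ENSRNOG00000032669), alpha-1 antitrypsin, the chief inhibitor of neutrophil elastase in the lung, measured 28.7, 37.7, 33.8 and 56.8 CPM in Control and 9.87, 7.39, 6.64 and 4.78 CPM in MCT-vehicle (log2 fold change -2.44 ± 0.32, edgeR adjusted p = 4.67e-04). Slpi, a second elastase inhibitor, made by airway epithelium, measured 21.5, 32.4, 23.1 and 9.88 CPM in Control and 80.7, 118, 82.7 and 58.8 CPM in MCT-vehicle (log2 fold change 1.97 ± 0.36). Serpine2 (ENSRNOG00000015461), which inhibits thrombin and plasminogen activators, measured 23.7, 38.6, 19.8 and 31.4 CPM in Control and 89.5, 113, 92.5 and 97.7 CPM in MCT-vehicle (log2 fold change 1.79 ± 0.21). So the first gene fell and the other two rose, each without overlap of the groups. The C1 inhibitor gene Serping1 rose by 0.72 ± 0.13. The terminal complement component C6 (ENSRNOG00000024115) measured 10.1, 29.3, 13.5 and 42.3 CPM in Control and 150.3, 391, 138 and 434 CPM in MCT-vehicle (log2 fold change 3.55 ± 0.79, edgeR adjusted p = 0.012). In Control and in MCT-vehicle alike, values in libraries 2 and 4 were more than 2-fold those in libraries 1 and 3.

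**Figure D4:**
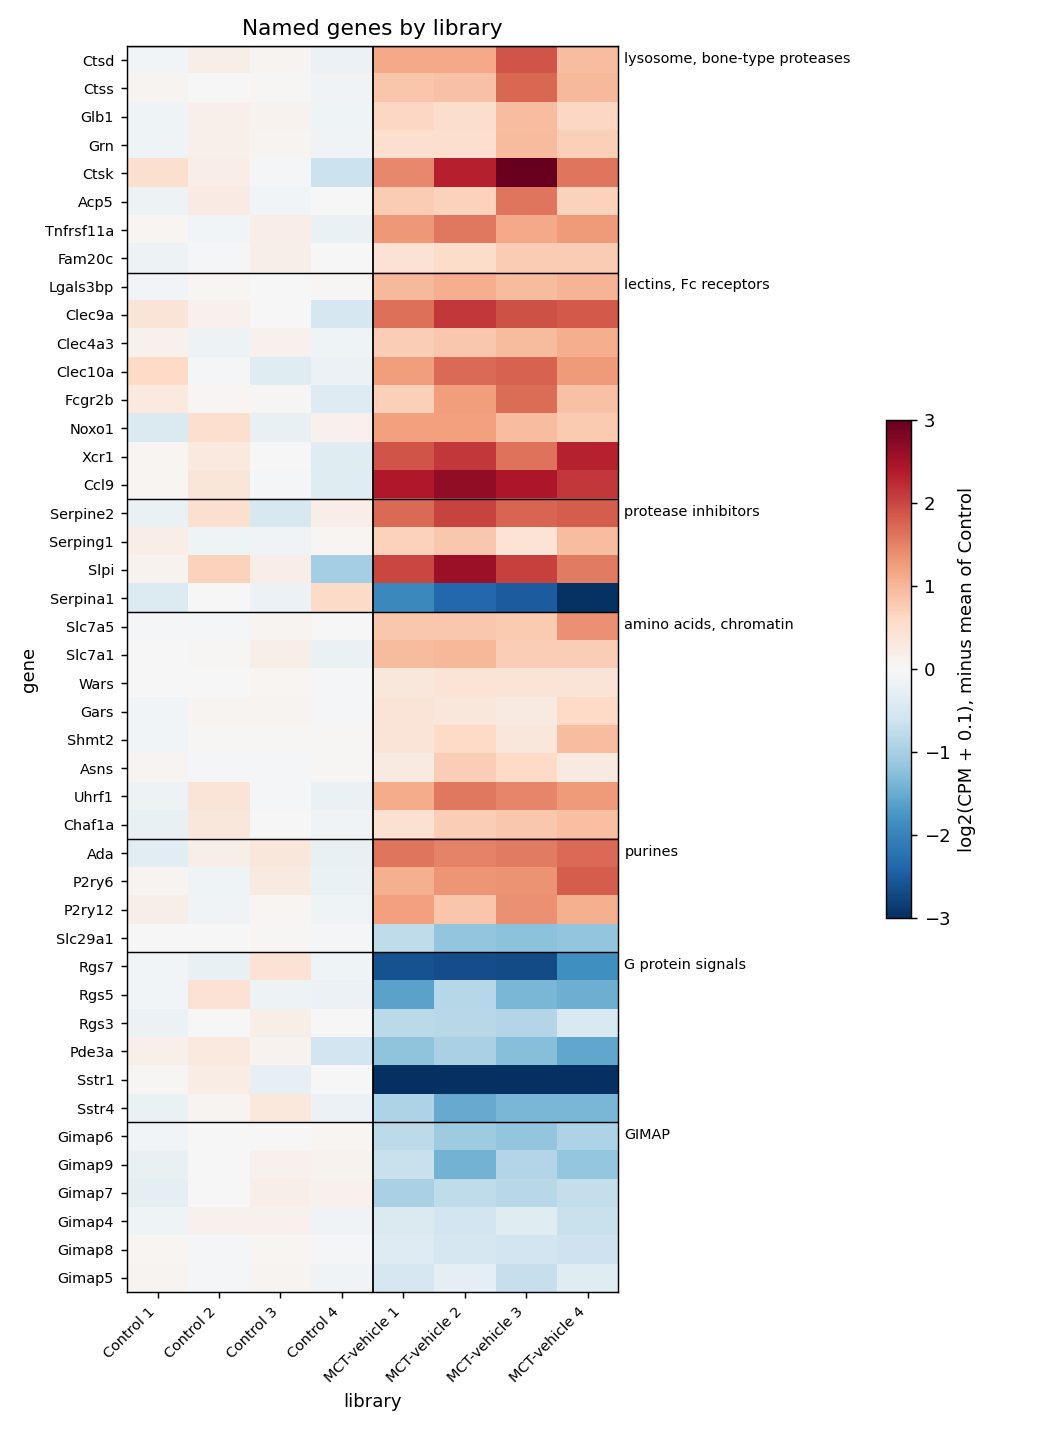
Colour gives log2(CPM + 0.1) in each library minus the mean of the 4 Control libraries, red for higher and blue for lower, limited to the range of the scale. Genes in the lysosomal, lectin and amino acid blocks are higher in all 4 MCT-vehicle libraries, the GIMAP and G protein signal genes shown are lower, and Serpina1 and Slc29a1 stand against the other genes of their blocks.

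Genes of amino acid supply and use were more often higher than lower where a call was made. Of amino acid transporters 7 of 32 rose and 1 fell (2 without Control 2). Aminoacyl-tRNA synthetases rose in 8 of 22 cases and fell in 0. Of serine, one-carbon and amino acid synthesis genes 6 of 23 rose and 2 fell. Calls made up 25%, 36.4% and 34.8% of these lists, against 18.6% of all genes tested (10.3% up and 8.28% down). The transporter list did not reach 1.5 times the background share. Synthetase risers were 5 without Control 4, 5 without MCT-vehicle 4 and 3 without Control 4 and MCT-vehicle 2. The falling synthesis genes were 0 to 1 on leaving out any library other than Control 1. Slc7a5, the leucine carrier LAT1, measured 20.6, 20.7, 22.5 and 20.8 CPM in Control and 37.2, 37.1, 36.4 and 55.1 CPM in MCT-vehicle (log2 fold change 0.97 ± 0.14, edgeR adjusted p = 5.06e-04). Slc7a1, the arginine and lysine carrier, measured 21.4, 22.3, 24.4 and 18.9 CPM in Control and 41.9, 42.96, 36.5 and 36.3 CPM in MCT-vehicle (log2 fold change 0.86 ± 0.12). Both were higher in every MCT-vehicle library.

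The synthetases charge each tRNA with its amino acid. Wars, for tryptophan, measured 76.5, 75.6, 80.2 and 74.7 CPM in Control and 97.6, 103, 102 and 101 CPM in MCT-vehicle (log2 fold change 0.39 ± 0.06, edgeR adjusted p = 6.05e-04), Gars, for glycine, rose by 0.41 ± 0.08 and Nars, for asparagine, by 0.28 ± 0.07, all under 1.5-fold. In mitochondria serine yields one-carbon units for purines: Shmt2, the first enzyme, rose by 0.59 ± 0.11, and Aldh1l2, which oxidises formyl-tetrahydrofolate there, measured 0.165, 0.166, 0.241 and 0.474 CPM in Control and 0.684, 2.49, 1.86 and 2.57 CPM in MCT-vehicle (log2 fold change 2.85 ± 0.51, with Control near the floor). Asparagine synthetase, Asns, a target of the amino acid starvation response, rose by 0.49 ± 0.11. In the endoplasmic reticulum, where secreted proteins fold, 7 of 27 genes rose and 2 fell, against 10.3% and 8.28% of all genes. Without Control 4 and MCT-vehicle 2 there were 3 up and 1 down, and the 2 were 1 without any library other than Control 1 and MCT-vehicle 4. The prolyl hydroxylase subunit P4hb rose by 0.34 ± 0.07 and the chaperone partner Sdf2l1 by 0.85 ± 0.16, while the disulfide isomerase gene Pdia5 measured 27.9, 16.9, 21.4 and 22.3 CPM in Control and 8.20, 11.02, 11.6 and 7.72 CPM in MCT-vehicle (log2 fold change -1.20 ± 0.24).

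Chromatin assembly genes, which pack newly copied DNA, rose in 11 of 24 cases and fell in 0, against 10.3% and 8.28% of all genes. The risers were 5 without Control 4, 7 without MCT-vehicle 4 and 4 without Control 4 and MCT-vehicle 2. Uhrf1, which carries DNA methylation through replication, measured 7.53, 11.02, 8.13 and 7.28 CPM in Control and 18.4, 25.4, 23.1 and 20.3 CPM in MCT-vehicle (log2 fold change 1.36 ± 0.19, edgeR adjusted p = 6.24e-04). The histone chaperone subunits Chaf1a and Chaf1b rose by 0.72 ± 0.14 and 1.17 ± 0.23 and Asf1b by 1.61 ± 0.31. A pair of genes tied to dividing cells were among the smallest p-values of the comparison. Ddias, an anti-apoptotic gene of proliferating cells, measured 0.495, 0.664, 0.903 and 0.710 CPM in Control and 3.16, 5.94, 4.92 and 4.62 CPM in MCT-vehicle (log2 fold change 2.74 ± 0.25), and Arhgap11a, a gene of mitotic cells, rose by 1.07 ± 0.10.

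Several brakes on G protein signals fell. RGS proteins speed the shut-off of G proteins and phosphodiesterases destroy cyclic AMP and cyclic GMP, the messengers by which prostacyclin and nitric oxide relax pulmonary arteries. Of 31 tested genes 10 fell and 3 rose, against 8.28% and 10.3% of all genes. The risers of the list were 1 without Control 4 and 1 without Control 4 and MCT-vehicle 2. Rgs7 (ENSRNOG00000021984) measured 19.5, 17.4, 27.6 and 18.8 CPM in Control and 3.25, 3.18, 3.13 and 5.67 CPM in MCT-vehicle (log2 fold change -2.45 ± 0.26, edgeR adjusted p = 8.14e-05). Rgs5, a pericyte marker, measured 53.3, 76.2, 50.8 and 50.3 CPM in Control and 18.5, 31.2, 21.9 and 20.3 CPM in MCT-vehicle (log2 fold change -1.32 ± 0.18). Pde3a, which breaks down cyclic AMP in smooth muscle and platelets, measured 38.2, 42.4, 37.04 and 23.02 CPM in Control and 14.8, 17.5, 14.1 and 11.5 CPM in MCT-vehicle (log2 fold change -1.28 ± 0.19, edgeR adjusted p = 9.20e-04). Groups did not overlap in any of the 3 genes, which for Rgs7 was a condition of its choice. Rgs3 changed by -0.74 ± 0.11.

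Of peptide and amine receptors 4 of 24 were called up and 4 down, against 10.3% and 8.28% of all genes, the falling genes being 2 without Control 3, 2 without MCT-vehicle 3 and 2 without MCT-vehicle 4. Of the somatostatin receptors, which inhibit secretion and growth, Sstr1 and Sstr4 fell. Sstr1 (ENSRNOG00000048145) measured 4.62, 5.21, 3.73 and 4.50 CPM in Control and 0.214, 0.318, 0.149 and 0.210 CPM in MCT-vehicle (log2 fold change -4.27 ± 0.43, with MCT-vehicle near the floor, edgeR adjusted p = 6.22e-05), and Sstr4 measured 13.6, 16.6, 19.5 and 13.8 CPM in Control and 8.16, 5.49, 6.04 and 6.04 CPM in MCT-vehicle (log2 fold change -1.30 ± 0.17). In both genes the Control values were all higher, and for Sstr1 separation was a condition of its choice. Sstr3 was not called, at 4.76 to 6.38 CPM in Control and 5.81 to 8.98 CPM in MCT-vehicle (log2 fold change 0.45 ± 0.19, edgeR adjusted p = 0.11), and Sstr2 and Sstr5 were too low to be tested. The wider list of somatostatin and neuroendocrine secretion, put together after values were seen, had 3 of 15 up and 3 down. The natriuretic peptide clearance receptor gene Npr3 measured 109.7, 91.5, 51.4 and 41.8 CPM in Control and 25.8, 44.5, 29.8 and 21.9 CPM in MCT-vehicle, where Control 4 lay below MCT-vehicle 2, and was called down (log2 fold change -1.27 ± 0.30, edgeR adjusted p = 0.0118). From values near the floor, the neuropeptide Y receptor gene Npy1r rose by 2.57 ± 0.52 and the leukocyte histamine receptor gene Hrh4 by 2.75 ± 0.57.

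Purine signalling held called genes among carriers, enzymes and receptors alike. Cells release ATP when stressed, surface enzymes turn it into adenosine, and adenosine is cleared by carriers and deaminase. Of the list 6 of 28 rose and 3 fell, or 32.1% called against 18.6% of all genes, with 3 risers without Control 2 and 4 without Control 4 and MCT-vehicle 2. The falling genes were 1 without any library other than MCT-vehicle 1 and Control 4, and 1 without Control 4 and MCT-vehicle 2. The adenosine carrier gene Slc29a1 (ENSRNOG00000019752), ENT1, measured 260.1, 256, 263 and 250.1 CPM in Control and 152, 113, 109.6 and 113 CPM in MCT-vehicle (log2 fold change -1.07 ± 0.10, edgeR adjusted p = 4.60e-05). Adenosine deaminase, Ada (ENSRNOG00000010265), measured 12.3, 17.3, 19.5 and 13.1 CPM in Control and 47.04, 42.8, 44.9 and 49.8 CPM in MCT-vehicle (log2 fold change 1.57 ± 0.15, edgeR adjusted p = 5.04e-05). The carrier was lower and the deaminase higher in every MCT-vehicle library, and such separation was a condition of their choice. Other carriers differed in direction: Slc28a2 was called up (0.51 ± 0.13, edgeR adjusted p = 0.0187) and Slc28a3 down (-0.49 ± 0.16, 0.0456). The call of Slc28a2 was lost without Control 2, Control 4 or MCT-vehicle 4 and without Control 4 and MCT-vehicle 2 (adjusted p up to 0.0756, from 0.00370 over 15 alternatives). That of Slc28a3 was lost by limma voom, without Control 4 and MCT-vehicle 2 and without any 1 library other than Control 4 (adjusted p up to 0.123, from 0.0184). The receptor genes P2ry6, for UDP, and P2ry12, for ADP, rose by 1.42 ± 0.17 and 1.16 ± 0.20.

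Several genes of lipid transport and storage changed. Of the lipoprotein and lipid droplet list 8 of 30 rose and 2 fell, against 10.3% and 8.28% of all genes. Gpihbp1 (ENSRNOG00000007475), which holds lipoprotein lipase on capillary endothelium, measured 83.8, 82.2, 76.1 and 45.4 CPM in Control and 9.70, 2.36, 3.28 and 3.31 CPM in MCT-vehicle (log2 fold change -3.92 ± 0.41, edgeR adjusted p = 1.35e-04, and −4.60 without MCT-vehicle 1). Fabp5, a fatty acid carrier of macrophages and epithelium, rose by 1.11 ± 0.16, the scavenger receptor gene Lrp1 by 0.60 ± 0.11, and Apod, from values near the floor, by 3.70 ± 0.64. Fabp4, of adipocytes, macrophages and endothelium, measured 14.4, 12.3, 9.70 and 16.5 CPM in Control and 67.9, 75.6, 124 and 42.97 CPM in MCT-vehicle (log2 fold change 2.55 ± 0.33). The fat list, of which Fabp4 is a member, summed to 24.1 to 41.6 CPM in Control and 72.8 to 180 CPM in MCT-vehicle, and its part in these results was not tested. Acer2, a Golgi ceramidase, measured 1695, 1088, 1107 and 686 CPM in Control and 333, 282, 226 and 235 CPM in MCT-vehicle (log2 fold change -2.09 ± 0.29), and Pafah2, which inactivates platelet-activating factor and oxidised phospholipids, changed by -1.09 ± 0.10.

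Guidance, adhesion and hyaluronan genes held some large changes in single genes. Sema3g (ENSRNOG00000018952), a semaphorin of arterial endothelium, measured 448, 438, 485 and 517 CPM in Control and 151, 96.8, 78.1 and 86.1 CPM in MCT-vehicle (log2 fold change -2.20 ± 0.19, edgeR adjusted p = 3.85e-05), and Sema6a changed by -0.94 ± 0.11. Their list had 5 of 42 up and 5 down, against 10.3% and 8.28% of all genes, with 2 to 3 up without any 1 of Control 2, Control 3, Control 4 or MCT-vehicle 1, and 3 down without any 1 of Control 2, Control 3, Control 4 or MCT-vehicle 2. Ephrins and their receptors, which keep arterial and venous territories apart, had 1 of 16 up and 3 down, with 0 up without any 1 library other than Control 4 and MCT-vehicle 2, and 2 up without MCT-vehicle 2. The ligand gene Efnb2 changed by -1.59 ± 0.25 and Efna1 by -0.75 ± 0.10, while Efna4 was called up (log2 fold change 0.63 ± 0.20, edgeR adjusted p = 0.0411), with overlapping groups and a call lost in 9 of 15 alternatives (adjusted p 0.0179 to 0.114). Cemip (ENSRNOG00000012442), which starts the breakdown of hyaluronan, measured 4.56, 3.05, 3.67 and 3.31 CPM in Control and 30.6, 35.3, 34.2 and 39.1 CPM in MCT-vehicle (log2 fold change 3.25 ± 0.26, edgeR adjusted p = 3.24e-05), and Dse, which makes dermatan from chondroitin, rose by 0.62 ± 0.10. The groups were far apart for Sema3g and Cemip, and separation of the groups was a condition of their choice. The junction genes Jam2 and Jam3 went in opposite directions, at -0.88 ± 0.12 and 0.60 ± 0.11. The Hippo partners Tead4 and Vgll4 changed by -0.60 ± 0.11 and -0.52 ± 0.11. In that list of Hedgehog and Hippo genes the count of 4 of 30 up and 6 down became 0 up and 2 down without Control 4 and MCT-vehicle 2, 2 up without Control 2, Control 3, MCT-vehicle 2 or MCT-vehicle 4, 3 down without Control 3, and 11 down without Control 1.

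Of the genes with the smallest p outside any list, several fell by over 2-fold. Gpr182 (ENSRNOG00000004311), an atypical chemokine receptor of endothelium, measured 143, 137, 133 and 133 CPM in Control and 54.1, 43.1, 30.4 and 41.4 CPM in MCT-vehicle (log2 fold change -1.69 ± 0.15, edgeR adjusted p = 3.85e-05). Ackr4, the scavenger of CCL19 and CCL21, measured 22.8, 48.1, 24.6 and 37.5 CPM in Control and 8.08, 7.53, 6.86 and 7.56 CPM in MCT-vehicle (log2 fold change -2.14 ± 0.23). Tmem100, a lung endothelial gene of BMP signalling, changed by -1.77 ± 0.18, Tmcc2 by -1.52 ± 0.15, the methyltransferase-like gene Mettl7a by -1.21 ± 0.11 and the corepressor gene Tle1 by -1.06 ± 0.10. Among those that rose were Slfn13, a Schlafen family nuclease that cuts tRNA, at 31.6, 22.3, 27.3 and 25.7 CPM in Control and 75.6, 62.2, 61.2 and 68.1 CPM in MCT-vehicle (log2 fold change 1.32 ± 0.11), the immunoglobulin superfamily gene Igsf10 at 1.38 ± 0.13 and the collagen VI chain gene Col6a6 at 1.19 ± 0.12. In each of these 9 genes the groups were separated and the change was at least 2-fold, but both were conditions of their choice.

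**Figure D5:**
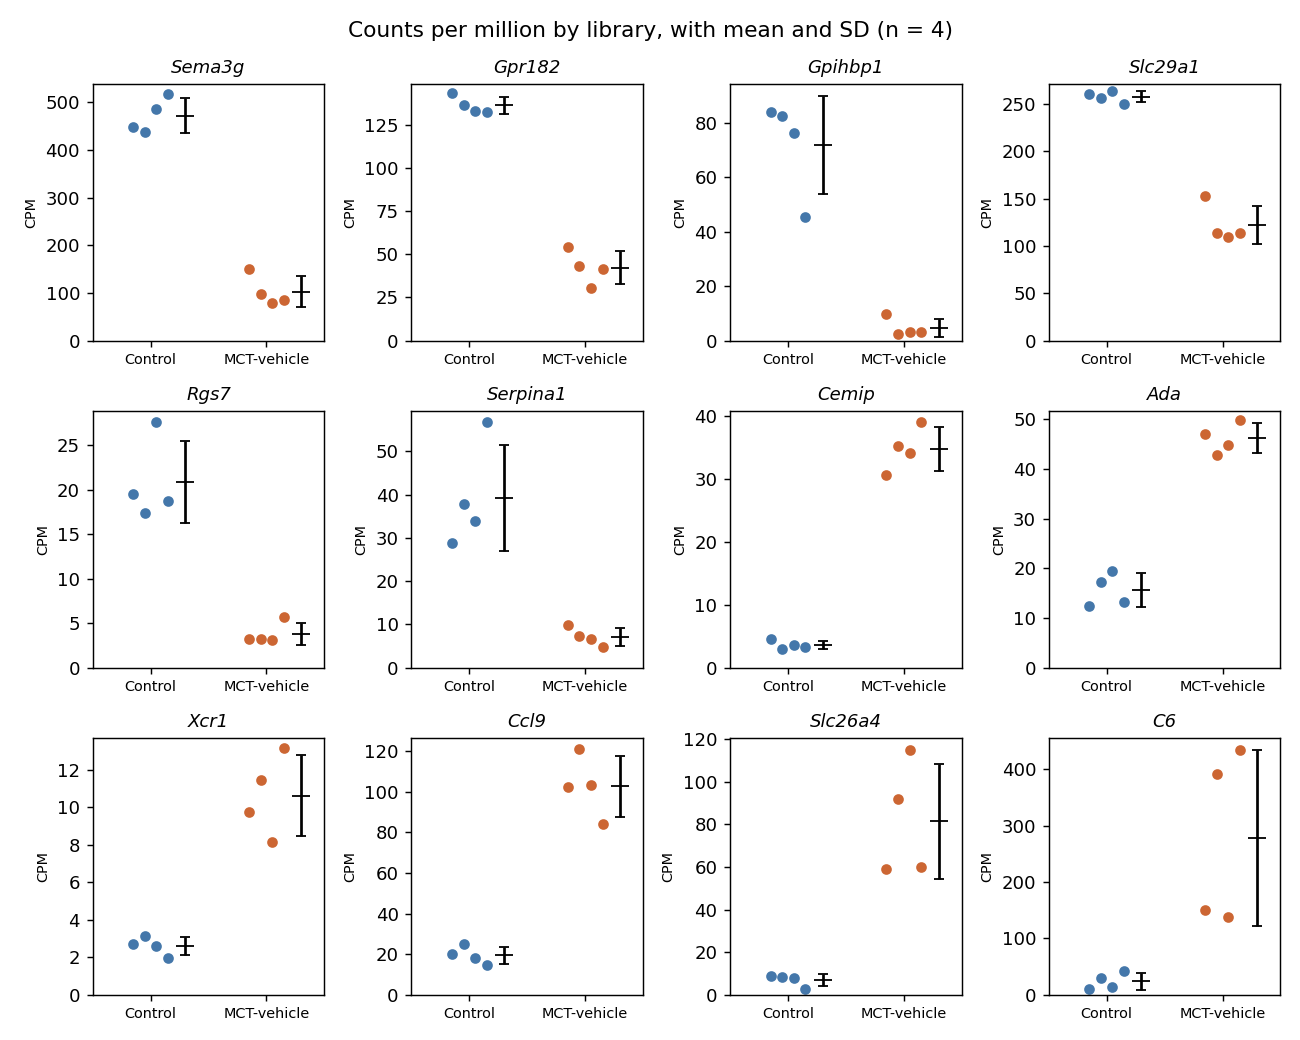
CPM of 12 genes in each library, with the mean and SD of each group of 4 beside the points and axes that start at 0. The 6 genes of which Sema3g is the first are lower in all MCT-vehicle libraries, and the 6 of which Cemip is the first are higher.

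Among abundant transcripts, Epas1, the hypoxia-inducible factor HIF-2 alpha that is highly expressed in lung endothelium, measured 3909, 3717, 4042 and 3617 CPM in Control and 2402, 2093, 1976 and 1949 CPM in MCT-vehicle (log2 fold change -0.86 ± 0.11). Adgrf5, an adhesion receptor that limits surfactant, measured 1965, 1931, 2173 and 1959.5 CPM in Control and 1136, 923, 989 and 809 CPM in MCT-vehicle (log2 fold change -1.06 ± 0.11). The intermediate filament gene Vim, of mesenchymal cells and leukocytes, rose, with means of 958 ± 96.2 to 1646 ± 221 CPM (SD, n = 4 each). Svop and Ecel1 were at or near 0 in Control, unlike Ptprn and Mcpt8l2, which rose from values above the floor. Svop, a synaptic vesicle gene, had 0 counts in all 4 Control libraries and 44, 35, 8 and 84 counts in MCT-vehicle, at least 51.0-fold higher than a floor of 3 counts over the Control group, or at least 34.4-fold without MCT-vehicle 4. Ecel1, a peptidase gene of injured neurons, had 2 counts in Control and 270 in MCT-vehicle, a ratio of 121 with an exact 95% interval of 33.1 to 1000 for counting error only. Ptprn, picked after its values were seen, encodes a protein of peptide secretory granules and measured 1.43, 0.498, 0.723 and 0.947 CPM in Control and 4.36, 3.58, 4.55 and 7.14 CPM in MCT-vehicle (log2 fold change 2.44 ± 0.35). Mcpt8l2, a mast cell protease, rose from 4.21 ± 1.75 to 52.02 ± 17.9 CPM (SD, n = 4 each), and near-identical copies make its value uncertain.

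Some other functions had few called genes. Beside a background of 18.6%, calls made up 2.94% of splicing factors, 9.09% of proteasome genes, 14.3% of the mitochondrial ribosome and 10.7% of nuclear receptors. Of splicing factors 0 of 34 rose and 1 fell, of proteasome genes 3 of 33 rose and 0 fell, of the mitochondrial ribosome 4 of 35 rose and 1 fell, and of nuclear receptors 2 of 28 rose and 1 fell. Leaving out single libraries moved these by more than 1.5 times: proteasome risers were 1 without Control 3 and 6 without MCT-vehicle 3, nuclear receptor risers were 1 without Control 2, Control 3 or MCT-vehicle 4 and falling ones 2 without MCT-vehicle 1 or MCT-vehicle 3, splicing risers were 1 without Control 1 or MCT-vehicle 3, and falling splicing genes were 2 without Control 1 or MCT-vehicle 3 and 3 without MCT-vehicle 2. Among nuclear receptors, the thyroid hormone receptor gene Thra changed by -0.55 ± 0.08. Single genes of other lists, in which 14.3% to 27.8% of tested members were called, changed more. The zinc exporter gene Slc30a2 rose by 3.25 ± 0.48 from values near the floor. Dusp2, a kinase phosphatase gene, rose by 1.08 ± 0.16 and the cadherin gene Cdh6 by 2.31 ± 0.40. The sulfotransferase gene Sult1a1 changed by -1.13 ± 0.15 and the lung mesenchyme factor gene Foxf1 by -0.72 ± 0.16. Of red cell genes 8 of 9 fell, 5 without any 1 of Control 1, MCT-vehicle 1 or MCT-vehicle 4 and 4 without Control 4 and MCT-vehicle 2. The haem synthesis gene Alas2 measured 52.99, 38.8, 28.9 and 35.2 CPM in Control and 18.6, 22.7, 19.99 and 14.3 CPM in MCT-vehicle without overlap. Globin copies are near-identical, so single globin values are not given.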

How the data were processed

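Per the file headers, the deposited table holds raw counts per gene under Ensembl rat identifiers; the aligner and counter of the authors, the genome build and the strand setting were not given in the sources used here. The members and gene lists were chosen with earlier results of these data known, and the tuft, type 2, GIMAP and somatostatin lists after values were seen. Genes were filtered with filterByExpr and fitted over all 12 libraries with edgeR 4.0.16 (TMM scaling, robust quasi-likelihood) in R 4.3.3; the contrast was MCT-vehicle minus Control, with Benjamini-Hochberg adjustment over 15257 genes and a threshold of 0.05. The filter left out 17626 features and kept 99.9% of counts. CPM use TMM-scaled totals. Named genes were those with the smallest p, the largest fold or the largest CPM difference among called genes not already well known. They also had to reach 1 CPM or more and have groups that did not overlap. For the p and fold choices a change of at least 2-fold was required. Separation of the groups was therefore no result for genes chosen so, among them Gnat3, Xcr1, Clec9a, Ada, Slc29a1, Rgs7, Sstr1, Sema3g and Cemip. Up to 4 genes per described list and 2 per other list were added. Efna4, Slc28a2, Slc28a3, Brd2, Pnpla2 and those so marked in the text were picked after their values were seen. On simulated counts for this contrast, 41.8%, 68.7% and 92.4% of genes changed 1.5-, 2- and 4-fold were recovered. There were 135 calls of changed genes and 13 of unchanged genes, in a step of 15114 genes, 200 of them changed. In the data 2843 genes were called, so these shares need not hold there. Alternatives used DESeq2 1.42.0, limma 3.58.1, no filter, only the 8 libraries, a replicate block, each library left out and, chosen after seeing the data, Control 4 and MCT-vehicle 2 left out. Some results are not reported here.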

Additional observations from a re-analysis of the deposited data

Results flagged for a closer look

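Single libraries stood apart from the other 3 of their group by Dixon's limit in 28 of 346 groups examined, where chance gives about 1 in 20. MCT-vehicle 3 was high for lysosomal and phagocyte genes: Ctsd at 5097 CPM (others 2609 to 3026), Ctss at 349 CPM (190 to 209), Psap at 3235 CPM (2002 to 2048), Acp5 at 203 CPM (108 to 114), Fcer1g at 256 CPM (169 to 181) and Chia at 548 CPM (428 to 446). MCT-vehicle 1 was high for the endothelial genes Gpihbp1 at 9.70 CPM (2.36 to 3.31) and Efnb2 at 184 CPM (72.1 to 91.0), and for Slc29a1 at 152 CPM (110 to 113). MCT-vehicle 4 was high for Slc7a5 at 55.1 CPM (36.4 to 37.2), Rgs7 at 5.67 CPM (3.13 to 3.25), Rgs3 at 90.5 CPM (67.8 to 71.0) and Slc28a2 at 65.7 CPM (53.99 to 54.9). MCT-vehicle 2 was low for Alox5 at 47.8 CPM (68.5 to 69.2) and high for Igsf10 at 99.1 CPM (79.4 to 79.9), for Clca1 at 68.7 CPM (1.58 to 2.76), for the heart-muscle list at 473 CPM (23.8 to 87.0) and for the thymus and lymph node list at 163 CPM (12.3 to 17.5).

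In Control, Control 1 was low for Shmt2 at 26.2 CPM (28.5 to 28.6) and high for Sstr3 at 6.38 CPM (4.76 to 4.93) and the red cell list at 5486 CPM (3334 to 3678). Control 2 was high for Arg1 at 20.7 CPM (15.2 to 15.996) and Rgs5 at 76.2 CPM (50.3 to 53.3). Control 3 was high for Hpgds at 2.11 CPM (1.07 to 1.22), Slc7a5 at 22.5 CPM (20.6 to 20.8) and Adgrf5 at 2173 CPM (1931 to 1965). Control 4 was low for Slc26a4 at 2.84 CPM (8.01 to 8.85) and high for the heart-muscle list at 318 CPM (18.2 to 37.1).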

How the results depend on the processing

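No called gene named in the text changed sign in the 15 alternatives, while the fold changes of Tfeb, Mcoln1, Lamp1, Alox5ap and Clca1, which were not called, took both signs. Without Control 4 and MCT-vehicle 2, 1675 genes were called, 969 up and 706 down, and fewer libraries were fitted there. Leaving out 1 library at a time gave 2021 to 2702 called genes, 1132 to 1529 up and 851 to 1224 down, with 466 to 565 up and 179 to 217 down at least 2-fold. Of 141 called genes named in the text, 128 kept their call in every alternative. Of those that did not and are not described above, Calr lost it without Control 4 and MCT-vehicle 2 (adjusted p = 0.0620). Same-numbered libraries did not deviate together (r from −0.0633 to 0.0731 over genes), and a fit with the replicate number as a block on the 8 libraries called 1152 genes up and 1040 down. Genes near the floor of 3 counts and changes under 2-fold are limited by depth and by 4 libraries a group.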

Other observations

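Brd2, a chromatin reader, and Pnpla2, the fat triglyceride lipase, had split Control values and were chosen after their values were seen. Brd2 measured 0.825, 17.3, 10.96 and 16.9 CPM in Control and 1.24, 0.726, 1.04 and 1.16 CPM in MCT-vehicle (log2 fold change -3.46 ± 0.66, edgeR adjusted p = 0.00411), so that Control 1 lay within the MCT-vehicle range. Limma voom gave an adjusted p of 0.152 and the replicate block 0.0939. Pnpla2 measured 19.6, 1.22, 22.8 and 10.7 CPM in Control and 1.41, 1.13, 1.86 and 0.893 CPM in MCT-vehicle (log2 fold change -3.37 ± 0.71, edgeR adjusted p = 0.00696), with Control 2 inside the MCT-vehicle range, and voom gave 0.288.

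There were 18 genes with 0 counts in all Control libraries, counts in every MCT-vehicle library and at least 10 in total, and 1 with the reverse. Of the 18, Marco, a scavenger receptor of macrophages, Ano3, Catsperz and Svop passed the filter and were called up, and Ccl1, Clec4n and Nodal were among those that did not pass it. The reverse case was Amelx, the enamel gene amelogenin, also under the filter.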
